A study of Mus musculus with 3 samples.

Results

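The 8 genes described here encode the core of the dystrophin-associated protein complex apart from the sarcoglycans: dystroglycan (Dag1), dystrophin (Dmd), utrophin (Utrn), the α- and β-dystrobrevins (Dtna, Dtnb), the β1- and β2-syntrophins (Sntb1, Sntb2) and sarcospan (Sspn). They were taken by name from 29917 named genes and compared across 3 RNA-seq libraries of vessels isolated from whole mouse brain, using for each gene the transcript row with the largest total count. The first library, C57BL6 WT, came from wild-type mice of the C57BL6 background. The second, C57BL6-BALB/c WT, came from wild-type mice of the mixed C57BL6-BALB/c background. The third, Cx30-/-, came from mice that lack Connexin 30 (gene Gjb6), a gap junction protein of astrocytes, in every tissue. All mice were 3 months old, and vessels of 3 mice were pooled for each library. The methods name males as the sex used for sequencing. The sample labels gave the background of the Cx30-/- library as C57BL6, whereas the methods gave a mixed C57BL6 and BALB/c background, so which WT library was the closer control cannot be told apart here. Each group was 1 pooled library, there was therefore no replicate error, and the intervals given below are 95% exact intervals that cover the sampling of reads only. Reads were not collapsed to molecules, so these intervals are the narrowest that could apply.

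The files summed to 60725557 counts for C57BL6 WT, 53484865 for C57BL6-BALB/c WT and 50375426 for Cx30-/-, with each read counted for every transcript it touched. The deletion was visible in the label check: Gjb6 had 2899 counts in C57BL6 WT and 2246 in C57BL6-BALB/c WT but 96 in Cx30-/-. Defining endothelial, smooth muscle and pericyte genes were abundant, as the vessel label would have it. Cldn5, the main tight junction claudin of brain endothelium, had 18265, 8573 and 20543 normalized counts per kilobase in C57BL6 WT, C57BL6-BALB/c WT and Cx30-/-, and Acta2, smooth muscle actin, had 9548, 14072 and 11606. RNA of other cells was present as well, including Gfap of astrocytes with 2040, 2013 and 1707, Snap25 of neurons with 4318, 6454 and 3801, and Ttr of the choroid plexus with 224167, 86205 and 116231 in the same order.

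The complex links the extracellular matrix to the actin cytoskeleton. Dystroglycan binds laminins, agrin and perlecan outside the cell through a long sugar chain and binds dystrophin or utrophin inside it. Dystrophin and utrophin carry dystrobrevins and syntrophins at their C-terminal end, and syntrophins hold channels and signalling enzymes at the membrane, while sarcospan is a membrane protein that sits with the sarcoglycans. In brain vessels the complex is known from more than 1 cell type: the short C-terminal dystrophin Dp71 anchors the water channel aquaporin-4 in astrocyte endfeet, utrophin is found in endothelium, and full-length dystrophin is found in smooth muscle.

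All 8 genes were detected in every library. Per kilobase of transcript, which is the scale on which genes can be compared with each other, with each gene's most-counted row, Utrn and Dag1 were the highest, followed by Dtna, Dtnb and Dmd, then Sspn, with the syntrophins Sntb2 and Sntb1 the lowest. Utrn reached 906 (C57BL6 WT), 728 (C57BL6-BALB/c WT) and 1139 (Cx30-/-) normalized counts per kilobase, and Dag1 reached 797, 773 and 847. These neighbours changed places in C57BL6-BALB/c WT, where Dag1 stood above Utrn, so their order did not hold across the libraries. Dtna followed with 425, 581 and 381, Dtnb with 303, 376 and 226, and Dmd with 183.7, 200.9 and 209.4 normalized counts per kilobase. Sspn had 152, 120 and 120, Sntb2 had 84.3, 126 and 97.5, and Sntb1 had 69.5, 63.6 and 84.7. Sspn and Sntb2 also exchanged places in C57BL6-BALB/c WT. Their order depends on the length used as well, since the deposited row of Sntb2 has 4423 bases and its GENCODE M21 transcript 3225. The other neighbouring pairs kept their order in all 3 libraries on the most-counted row of each gene. The place of Dmd depended on that row, which is its longest: its short row Dmd-201, described below, had 580, 590 and 647 normalized counts per kilobase and would stand above Dtna and Dtnb in each library.

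**Figure D1:**
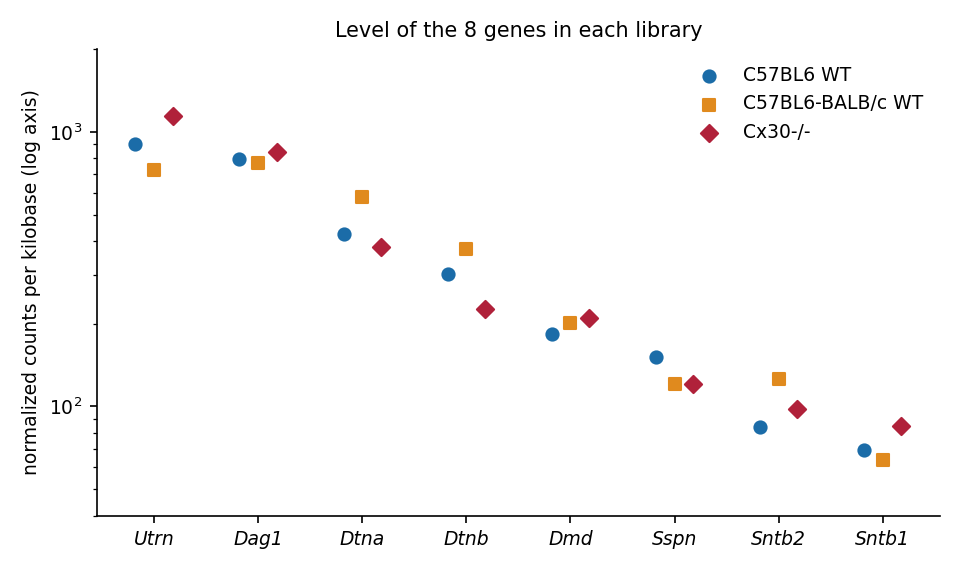
Normalized counts per kilobase of transcript (log axis) of the 8 genes, with 1 symbol for each of the 3 libraries and no error bars because each group was 1 library. Utrn and Dag1 lay at 728 or more in every library, and Sntb1 at 84.7 or less.

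None of the 8 genes differed by 2-fold or more between any pair of libraries. Over all genes with at least 50 normalized counts in 1 of the libraries compared, 2.68% passed 2-fold between Cx30-/- and C57BL6 WT, 8.69% between Cx30-/- and C57BL6-BALB/c WT, and 3.43% between the WT libraries. A count of 0 among 8 genes is therefore near what these shares give and is not a result about the complex. At 1.5-fold, 0 of the 8 genes passed against C57BL6 WT, where 10.8% of all genes did. Against C57BL6-BALB/c WT 3 of the 8 passed, Utrn upward and Dtna and Dtnb downward, beside 28.9% of all genes, and between the WT libraries 0 passed beside 15.4%. The median log2 ratio of the 8 genes was 0.14 against C57BL6 WT, 0.03 against C57BL6-BALB/c WT and 0.04 between the WT libraries, where the medians of all genes were -0.00, 0.00 and 0.00. In 7 of the 8 genes, all but Sntb2, the Cx30-/- value lay outside the range set by the WT libraries, which was also the case for 73.7% of 14688 genes. In Dmd, Sntb1 and Sspn the gap to the nearer WT library was within counting error.

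With both WT libraries taken as 1 group, so that their difference stood for the spread, edgeR's quasi-likelihood test called 9 of 17576 genes at a Benjamini-Hochberg adjusted p under 0.05 (0.0512%) and 0 of the 8 genes. At an unadjusted p under 0.05 edgeR called 1528 genes, again with 0 of the 8, and DESeq2 called 0 of the 5 it gave an adjusted p. The lowest edgeR adjusted p of the 8 was that of Dtnb (0.639, log2 fold change -0.58, standard error 0.31). This fit had 1 residual degree of freedom per gene.

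**Figure D2:**
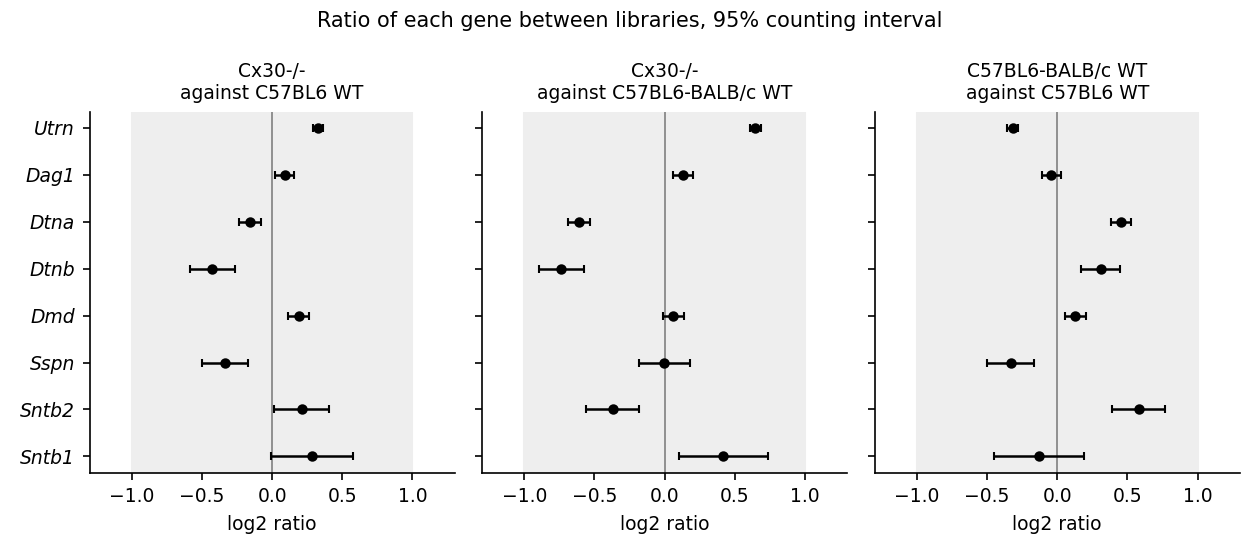
Log2 ratio of each gene (points) with its 95% counting interval (bars) in the 3 comparisons of libraries, the grey band marking changes under 2-fold. All 24 points lie inside the band; Utrn lies above 0 and Dtna and Dtnb below 0 in both Cx30-/- comparisons.

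Dag1 (chr9:108204634-108263958 of GRCm38, minus strand, 4 exons) encodes the precursor that is cut into α- and β-dystroglycan. It had 3429, 3329 and 3647 normalized counts in the C57BL6 WT, C57BL6-BALB/c WT and Cx30-/- libraries. The 3 libraries lay close together, with Cx30-/- the highest. The log2 ratio of Cx30-/- to C57BL6 WT was 0.09 (0.02 to 0.15) and that to C57BL6-BALB/c WT was 0.13 (0.06 to 0.20), and that between the WT libraries was -0.04 (-0.11 to 0.03). Of all genes, 26.5% differed by less than Dag1 from C57BL6 WT. The largest of its 3 ratios was smaller than that of any other member.

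Utrn (chr10:12382188-12869365, minus strand), the autosomal relative of dystrophin, had the most reads of the 8 genes. Its row of 74 exons and 12382 bases was covered almost throughout, with 35, 78 and 21 bases free of reads in C57BL6 WT, C57BL6-BALB/c WT and Cx30-/-. It had 11223, 9009 and 14103 normalized counts in that order. Cx30-/- was thus the highest and C57BL6-BALB/c WT the lowest. The log2 ratio of Cx30-/- to C57BL6 WT was 0.33 (0.29 to 0.36) and that to C57BL6-BALB/c WT was 0.65 (0.61 to 0.69), a ratio of 1.26 and of 1.57. The WT libraries differed from each other by -0.32 (-0.36 to -0.28), about as much as Cx30-/- differed from C57BL6 WT. In edgeR the log2 fold change was 0.48 with a standard error of 0.41 and an adjusted p of 0.854. The endothelial markers stood in the same order: their 10 genes summed to 139970, 89928 and 162185 normalized counts in the C57BL6 WT, C57BL6-BALB/c WT and Cx30-/- libraries, none was at 0, and all 10 were higher in Cx30-/- than in either WT library, by a median log2 ratio of 0.20 and 0.84. This order was not particular to endothelium. In the same library order, pericyte markers summed to 65443, 41206 and 70216, and perivascular fibroblast markers to 14396, 12028 and 16998. Red cell markers summed to 8321, 4803 and 18991. Not every gene of these lists kept the order, and the sums of the remaining marker lists stood in other orders. The part of all these markers in the Utrn values was not tested. In bulk libraries such as these, more cells of a type and more RNA per cell cannot be told apart.

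Dmd (chrX:82948870-85206141, plus strand) has several start sites, and 14 of its transcripts were in the files. The row used, Dmd-203, is the full-length form with 79 exons and 14910 bases, and it had 2739, 2995 and 3122 normalized counts in the C57BL6 WT, C57BL6-BALB/c WT and Cx30-/- libraries. Cx30-/- was the highest by a small margin. The log2 ratio of Cx30-/- to C57BL6 WT was 0.19 (0.12 to 0.26) and that to C57BL6-BALB/c WT was 0.06 (-0.01 to 0.13). That sum, however, came mostly from exons that the full-length form shares with the short form that starts far downstream, Dmd-201, with 18 exons and 4438 bases and the structure of Dp71. The short row alone had 2946, 2425 and 2738 of the 3137, 2773 and 2976 counts of the full-length row in C57BL6 WT, C57BL6-BALB/c WT and Cx30-/-.

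The start sites of the long and of the short form lie about as far apart as the gene is long, and the sequences before them, taken from RefSeq (GRCm38.p6, plus strand, 250 bases that end just before the start), are printed to show what separates the forms counted below. Capitals mark matches to promoter motifs, on either strand. The TATA box was searched as TATAAA. The GC box, which binds the factor Sp1, was searched as GGGCGG. The CCAAT box was searched by the letters of its name, and the CArG box is the motif of serum response factor.

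Full-length start, chrX:82948620-82948869: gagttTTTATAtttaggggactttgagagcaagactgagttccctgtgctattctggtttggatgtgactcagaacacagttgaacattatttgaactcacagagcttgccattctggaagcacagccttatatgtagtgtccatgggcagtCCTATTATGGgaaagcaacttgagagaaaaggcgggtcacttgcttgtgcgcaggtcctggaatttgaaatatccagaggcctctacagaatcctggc
Short-form start, chrX:85048045-85048294: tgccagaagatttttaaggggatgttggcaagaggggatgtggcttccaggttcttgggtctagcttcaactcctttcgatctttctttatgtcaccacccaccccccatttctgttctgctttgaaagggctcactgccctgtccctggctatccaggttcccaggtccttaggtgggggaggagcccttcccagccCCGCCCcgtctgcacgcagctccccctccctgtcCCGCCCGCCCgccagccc

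The full-length window was 45.2% G and C and held a CArG box 98 bases before the start and the letters of a TATA box on the minus strand 245 bases before it. The short-form window was 60.0% G and C and held 3 GC boxes on the minus strand, at 52, 18 and 14 bases before the start, the last 2 of which overlap. Over the 32851 promoters of the RefSeq table, cut to the same 250 bases, the median G and C content was 52.4%, and a GC box was present in 32.7%, a TATA box in 12.4%, a CCAAT box in 33.8% and a CArG box in 1.47%. These are matches of letters, not measured binding sites. The table held windows for 5 of the 8 genes (Dag1, Dmd, Utrn, Dtnb and Sspn).

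The bases of Dmd-203 that Dmd-201 lacks, 9417 before the short start and 1102 after the short form's end, carried 191 counts in C57BL6 WT, 348 in C57BL6-BALB/c WT and 238 in Cx30-/-. That was 6.09% (5.28 to 6.98), 12.5% (11.3 to 13.8) and 7.997% (7.05 to 9.03) of the row's counts. Reads before the short start were not separated from those after the short form's end. Other rows, such as Dmd-212, also share some of the bases before the short start. The stretch is therefore not a measure of the full-length form alone. Normalized, the stretch had 167, 376 and 250 counts, with C57BL6 WT the lowest and C57BL6-BALB/c WT the highest. It therefore differed more between the WT libraries, by a log2 ratio of 1.17 (0.91 to 1.43), than Cx30-/- differed from either, by 0.58 (0.30 to 0.86) and -0.59 (-0.83 to -0.35). Adding the reads of Dmd-206, the most that the subtraction of rows could have missed, gave 204, 358 and 259 counts and log2 ratios of 1.12 between the WT libraries and of 0.61 and -0.51 for Cx30-/-. The annotated rows that lie wholly before the short start were 6 in number, with 6 to 53 counts each. C57BL6 WT was lowest in 5 of them and C57BL6-BALB/c WT highest in 5. At least 40.7% of the 9417 bases before the short start had no read in C57BL6 WT, at least 25.8% in C57BL6-BALB/c WT and at least 34.8% in Cx30-/-.

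The 1858 bases of Dmd-202, a short-start row that ends in the first bases of the last exon, had 398, 447 and 483 normalized counts in C57BL6 WT, C57BL6-BALB/c WT and Cx30-/-, and the rest of Dmd-201, 2580 bases that are mostly the last exon, had 2174, 2172 and 2390. The Dmd-202 stretch gave a log2 ratio of Cx30-/- of 0.28 (0.09 to 0.47) to C57BL6 WT and 0.11 (-0.08 to 0.30) to C57BL6-BALB/c WT, and the WT libraries differed by 0.17 (-0.03 to 0.36). The last-exon stretch gave log2 ratios of Cx30-/- to C57BL6 WT of 0.14 (0.05 to 0.22), to C57BL6-BALB/c WT of 0.14 (0.05 to 0.22) and between the WT libraries of -0.00 (-0.09 to 0.08). Density was taken per position where a read of 50 bases could start inside an exon. On that scale Dmd-202 was 16.7, 8.30 and 13.5 times as dense as the bases absent from Dmd-201. Reads across exon junctions were lost in the alignment, which counts against the stretches with many small exons, and this scale allows for it. On the same scale the rest of Dmd-201 was 2.33, 2.08 and 2.12 times as dense as Dmd-202, so density also rose toward the end of the short row. Differences in density along a transcript were not separated from differences between the forms. The density ratios are therefore not a measure of short against full-length form. The smooth muscle markers, taken as a sum, had the same order as the bases of Dmd-203 that Dmd-201 lacks. Their 8 genes summed to 41943, 62713 and 56836 normalized counts in the C57BL6 WT, C57BL6-BALB/c WT and Cx30-/- libraries, none was at 0, and all 8 were higher in C57BL6-BALB/c WT than in C57BL6 WT, by a median log2 ratio of 0.59. Not every smooth muscle marker kept the order of the sum. In Cx30-/-, 7 were higher and 1 lower than in C57BL6 WT, and 2 were higher and 6 lower than in C57BL6-BALB/c WT. The part of the smooth muscle markers in the Dmd values was not tested.

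**Figure D3:**
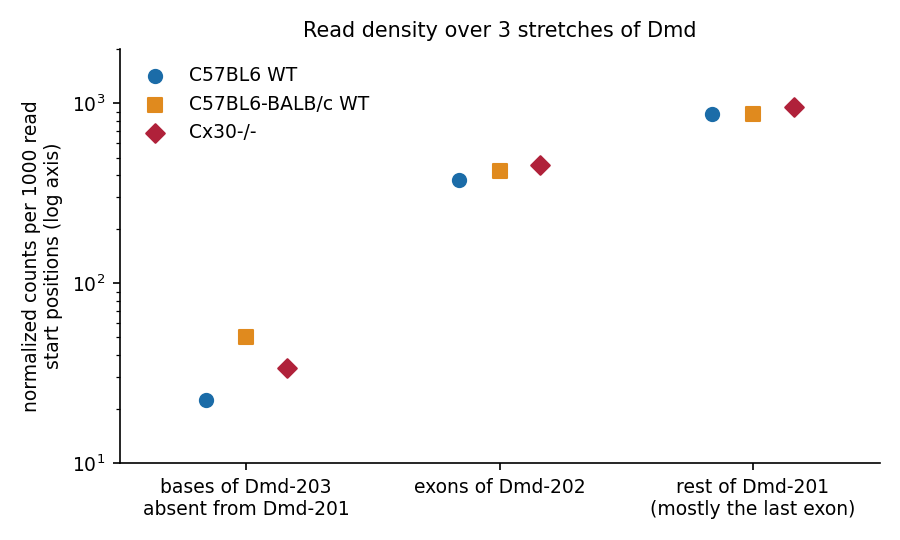
Normalized counts per 1000 positions where a 50-base read could start (log axis) over 3 stretches of Dmd, with 1 symbol per library. The bases absent from the short row Dmd-201 had 22.4, 50.6 and 33.6 in C57BL6 WT, C57BL6-BALB/c WT and Cx30-/-, and the libraries lay between 374 and 453 over Dmd-202 and between 872 and 959 over the rest of Dmd-201.

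The dystrobrevins, which bind the C-terminal end of dystrophin and utrophin and recruit syntrophins, were lower in Cx30-/- than in both WT libraries. Dtna (chr18:23415135-23659715, plus strand) had 2688, 3678 and 2411 normalized counts in the C57BL6 WT, C57BL6-BALB/c WT and Cx30-/- libraries. The log2 ratio of Cx30-/- to C57BL6 WT was -0.16 (-0.24 to -0.08) and that to C57BL6-BALB/c WT was -0.61 (-0.69 to -0.53), while the WT libraries differed by 0.45 (0.38 to 0.52). The difference between the WT libraries was thus larger than that between Cx30-/- and C57BL6 WT. Its shorter row, Dtna-201, had 200, 208 and 170 counts and log2 ratios of 0.03 and -0.33. An antisense gene, Gm47898, covers 90 bases of Dtna, and the kit kept no strand, so its reads could not be told apart.

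Dtnb (chr12:3572381-3781796, plus strand) had 736, 913 and 548 normalized counts in the C57BL6 WT, C57BL6-BALB/c WT and Cx30-/- libraries. Cx30-/- was below both WT libraries by more than the WT libraries differed from each other: the log2 ratio to C57BL6 WT was -0.43 (-0.59 to -0.27), that to C57BL6-BALB/c WT was -0.74 (-0.90 to -0.58), and the WT libraries differed by 0.31 (0.17 to 0.45). Of all genes, 10.3% had a lower ratio against C57BL6 WT and 10.1% against C57BL6-BALB/c WT. The other row, Dtnb-201, gave -0.39 and -0.71, although it shares 2127 bases with the row used and so shares reads. Neuron markers, taken as a sum, stood in the same order as Dtna and Dtnb. Their 8 genes summed to 40196, 48542 and 28143 normalized counts in C57BL6 WT, C57BL6-BALB/c WT and Cx30-/-, none was at 0, and 7 of 8 were lower in Cx30-/- than in each WT library, by medians of -0.53 and -0.79. Between the WT libraries 5 of them were higher and 3 lower in C57BL6-BALB/c WT, so not every neuron marker kept the order of the sum. This order was not particular to neurons. Among the lists described below, the glycosylation genes summed to 18562, 19375 and 15564 in the same library order. The sums of the sarcoglycans, the other relatives and the intracellular and channel partners stood in it as well. Those of the dystroglycan ligands and of the other marker lists stood in other orders. The part of the neuron markers in the dystrobrevin values was not tested.

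The β-syntrophins, adaptors with a PDZ domain that tie channels and kinases to the complex, had the fewest reads. Sntb1 (chr15:55636388-55906949, minus strand) had 171, 157 and 209 normalized counts in the C57BL6 WT, C57BL6-BALB/c WT and Cx30-/- libraries. The log2 ratio of Cx30-/- to C57BL6 WT was 0.29 (-0.01 to 0.58), an interval that holds 0, and that to C57BL6-BALB/c WT was 0.41 (0.10 to 0.73). Its 2 shorter rows were also highest in Cx30-/-, with log2 ratios of 0.55 and 0.33 against C57BL6 WT and 0.63 and 0.29 against C57BL6-BALB/c WT, although the 3 rows share exons and so share reads.

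Sntb2 (chr8:106935750-107019714, plus strand) had 373, 557 and 431 normalized counts in the C57BL6 WT, C57BL6-BALB/c WT and Cx30-/- libraries. It was the only member whose Cx30-/- value lay between the WT values. The log2 ratio of Cx30-/- to C57BL6 WT was 0.21 (0.01 to 0.41) and that to C57BL6-BALB/c WT was -0.37 (-0.56 to -0.18), and the WT libraries differed by 0.58 (0.39 to 0.77), the widest gap between them of the 8 genes.

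Sspn (chr6:145931641-145965223, plus strand) encodes sarcospan, a protein that crosses the membrane several times. It had 672, 534 and 533 normalized counts in the C57BL6 WT, C57BL6-BALB/c WT and Cx30-/- libraries. Cx30-/- and C57BL6-BALB/c WT were equal within counting error, with a log2 ratio of -0.00 (-0.18 to 0.18), and C57BL6 WT stood above both, by a log2 ratio of Cx30-/- of -0.33 (-0.50 to -0.17). Its 3 rows differ in their first exons and had 762 to 769 counts in C57BL6 WT, 487 to 494 in C57BL6-BALB/c WT and 500 to 508 in Cx30-/-. The other rows each share 4181 bases with the row used, of 4431 bases, and so share most reads. Their likeness is not separate support. The antisense gene Sspnos shares 69 bases with it and had 6, 6 and 1 counts.

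The matrix and synaptic ligands of dystroglycan gave 12 genes, of which 0 passed 2-fold in any comparison. For this list and those below, the shares of all genes past 2-fold were 2.68% (Cx30-/- against C57BL6 WT), 8.69% (Cx30-/- against C57BL6-BALB/c WT) and 3.43% (between the WT libraries). In each Cx30-/- comparison 8 ligands were higher and 4 lower, beside 49.3% of all genes higher against C57BL6 WT and 50.3% against C57BL6-BALB/c WT. Their median log2 ratio was 0.12 against C57BL6 WT and 0.30 against C57BL6-BALB/c WT. Agrn, which encodes the proteoglycan agrin, had 2585 (C57BL6 WT), 2883 (C57BL6-BALB/c WT) and 2932 (Cx30-/-) normalized counts per kilobase, above Dag1 itself. Bgn, which encodes the small proteoglycan biglycan, had 2612, 2179 and 2849.

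The enzymes that build the sugar chain of α-dystroglycan lay mostly on the lower side in Cx30-/-. Of 18 genes, 17 were lower in Cx30-/- than in C57BL6 WT, with a median log2 ratio of -0.20, beside 50.7% of all genes lower. Against C57BL6-BALB/c WT 13 were lower, with a median of -0.34, beside 49.7% of all genes. Between the WT libraries 9 were higher and 9 lower. None passed 2-fold, and edgeR called none of them. Neuron, oligodendrocyte and astrocyte markers were mostly lower as well. Astrocyte markers were lower in 7 of 8 genes against C57BL6 WT and 5 of 8 against C57BL6-BALB/c WT, with medians of -0.24 and -0.14. Choroid plexus markers were lower in 8 of 8 against C57BL6 WT but higher in 8 of 8 against C57BL6-BALB/c WT. Neuron markers were lower in 7 of 8 genes in each comparison, with medians of -0.53 and -0.79 and the sums given beside Dtnb. Of 8 oligodendrocyte markers, 8 were lower against C57BL6 WT and 6 against C57BL6-BALB/c WT, with medians of -0.52 and -0.51 and sums of 53602, 47668 and 42273 normalized counts in the C57BL6 WT, C57BL6-BALB/c WT and Cx30-/- libraries. None of these markers was at 0, and their part in the values of the enzymes was not tested. Dpm3, a subunit of the enzyme that supplies activated mannose, was the exception against C57BL6 WT, at 0.16. Dpm2, another subunit of that enzyme, had the most counts per kilobase of the list, 1070 in C57BL6 WT, 1171 in C57BL6-BALB/c WT and 934 in Cx30-/-.

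Of the 5 sarcoglycan genes listed, Sgce and Sgcb were the most abundant. Sgce had 478 (C57BL6 WT), 452 (C57BL6-BALB/c WT) and 487 (Cx30-/-) normalized counts per kilobase. Against C57BL6-BALB/c WT 1 of 4 genes with enough counts passed 2-fold: Sgcz had 72.4 normalized counts there, 30.4 in Cx30-/- and 39.3 in C57BL6 WT, a log2 ratio of -1.25. The median log2 ratio was 0.03 over 3 genes against C57BL6 WT and -0.29 over 4 against C57BL6-BALB/c WT. Of 5 other relatives of dystrophin, dystrobrevin and syntrophin, Sntg1 and Dytn passed 2-fold against C57BL6-BALB/c WT, at -1.27 and 1.02, and 0 passed against C57BL6 WT. Sntg1, the γ1-syntrophin of neurons, had 158, 200 and 82.9 normalized counts, and Dytn, dystrotelin, 50.6, 25.9 and 52.5.

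The intracellular and channel partners gave 18 genes with enough counts, 0 of them past 2-fold, with a median log2 ratio of 0.07 against C57BL6 WT and -0.02 against C57BL6-BALB/c WT. Cav1, caveolin-1 of the membrane pits of vessel cells, had 2611, 1934 and 2957 normalized counts per kilobase. Over all lists, edgeR called 0 of 140 genes, and the lowest adjusted p was 0.0536, of Hbb-bt.

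For the remaining marker lists, the medians of the log2 ratio of Cx30-/- against C57BL6 WT and against C57BL6-BALB/c WT were 0.10 and 0.64 for pericytes, -0.24 and -0.14 for astrocytes, -0.17 and 0.10 for microglia and macrophages, and 0.24 and 0.45 for perivascular fibroblasts. Choroid plexus markers lay at -0.65 and 0.47, and red cell markers at 1.19 and 2.04. Of the marker genes, 4 of 6 red cell genes passed 2-fold against C57BL6 WT, Hba-a1 at 1.70 being the largest. Against C57BL6-BALB/c WT 5 of 6 did, as did Cldn5 at 1.26 and Ly6c1 at 1.04 of endothelium, Higd1b at 1.21 of pericytes and Mrc1 at 1.09 of macrophages. None of these markers was at 0 in any library. Their part in the values of the 8 genes was not tested.

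**Figure D4:**
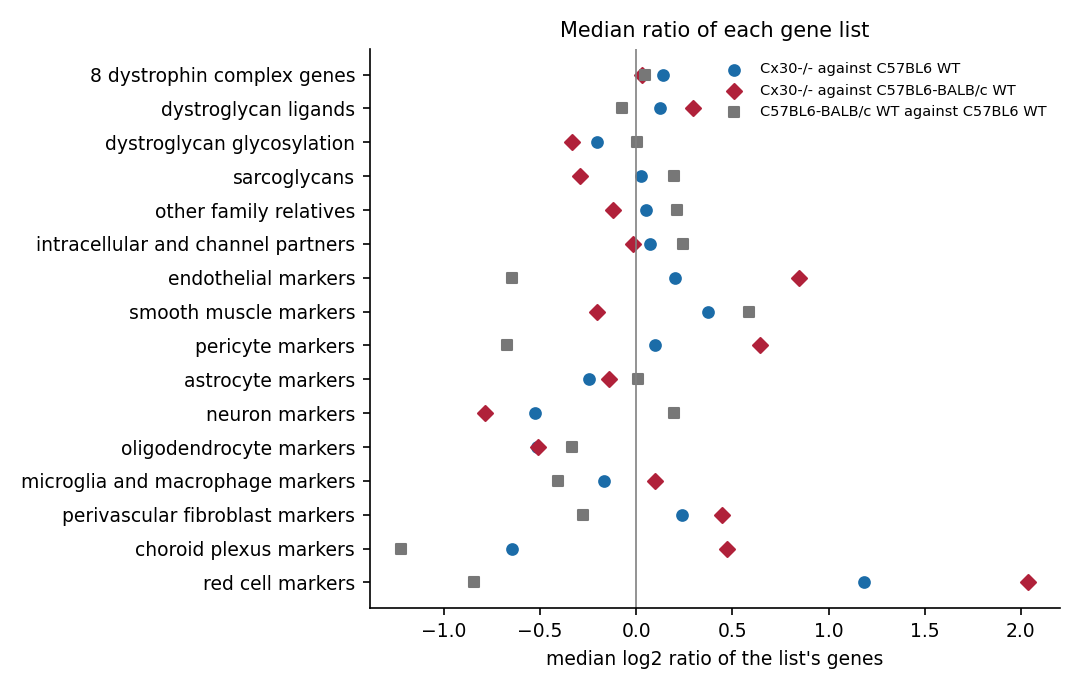
Median log2 ratio of the 8 genes and of each of the 15 lists in the 3 comparisons of libraries (colours and symbols). The 8 genes sit at 0.14, 0.03 and 0.04, in both Cx30-/- comparisons between the glycosylation list on the negative side and the endothelial and red cell markers on the positive side.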

How the data were processed

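Polyadenylated RNA of isolated brain vessels was sequenced from 3 pooled libraries. Per the labels and the study's methods, base calls came from CASAVA 1.8.2 and the authors aligned reads to the mouse genome with Bowtie, which does not split reads over exon junctions, discarded reads with several matches and counted those overlapping exons of each transcript. The deposited counts are raw counts per transcript, without regard to strand. The deposited fraction column is each count divided by the authors' total, and was used only as an alternative scaling. Of 82813 transcript rows, 69375 were named through GENCODE M21 (GRCm38), which also gave the coordinates printed; the deposited positions reach 197054592 on chromosome 1, beyond its last annotated base there (195323493), and were not used.

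The most-counted row of each gene, over the 3 libraries, was kept and divided by median-of-ratios size factors (1.15, 0.926 and 0.953 for C57BL6 WT, C57BL6-BALB/c WT and Cx30-/-). Ratios between libraries carry 95% exact (Clopper-Pearson) intervals of read sampling (scipy 1.17.1) and no p-value. A ratio of at least 2 was counted where 1 library had 50 or more normalized counts. edgeR 4.0.16 (R 4.3.3; quasi-likelihood, TMM) compared Cx30-/- with both WT libraries as 1 group, and DESeq2 1.42.0 was an alternative. Both steps were also run on simulated counts that follow the models they assume, without gene-level differences between the WT libraries. Those runs checked the calculation, not how well the models hold for these data. Members and lists were chosen with earlier results of these data known. All 8 members are named. Of each list, genes past 2-fold in a Cx30-/- comparison (at most 4, the largest) and the gene with most counts per kilobase are named; Dpm3, Sgcb and Bgn were named after their values were seen, and single values of some listed genes are not reported here. For the 8 rows used, 50-base windows of their GENCODE M21 transcripts were searched in transcripts of other genes: 5 shared none, and Dtna, Sspn and Sntb1 shared at most 0.779%. Deposited lengths differed from GENCODE M21 for Dag1 (4304 against 4364 bases), Dtna (6330 against 6295), Sntb1 (2464 against 4919) and Sntb2 (4423 against 3225). For these genes the windows therefore do not match the counted row exactly. Counts per kilobase used the deposited lengths.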

Additional observations from a re-analysis of the deposited data

Results flagged for a closer look

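For Sntb2 the direction of the Cx30-/- library depended on the WT library it was set against, with both counting intervals away from 0: its log2 ratio was 0.21 against C57BL6 WT and -0.37 against C57BL6-BALB/c WT. The bases of Dmd-203 that Dmd-201 lacks behaved alike, at 0.58 against C57BL6 WT and -0.59 against C57BL6-BALB/c WT. With 1 library in each group the difference between the comparisons was not tested, and both share the Cx30-/- library.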

How the results depend on the processing

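No paired analysis was possible because each group was 1 pooled library with no replicate numbers. For the same reason leaving out a WT library leaves no residual degrees of freedom: the 16 values without 1 WT library are ratios with no test, from -0.73 to 0.66, and 2 of them changed sign. Other size factors, other choices of row, a pseudocount of 1 and other count minimums left 0 members past 2-fold in each comparison. A looser limit can only keep or raise a count: at 1.5-fold it was 3 against C57BL6-BALB/c WT, where 28.9% of all genes passed. Against C57BL6 WT and between the WT libraries it stayed 0. Scaling by the authors' total moved the median of the 8 genes between the WT libraries from 0.043 to -0.034, the cause being the scaling itself. Of 192 recomputed member ratios 183 stayed inside the counting interval of the reported value and 7 changed sign, 6 of them those of Sspn against C57BL6-BALB/c WT, whose reported log2 ratio is -0.00. edgeR called 0 of the 8 genes under every alternative, while over all genes it called 9 in the reported fit, 41 with upper-quartile scaling, 135 without a count filter, 14 with summed rows and 22 with the longest row; DESeq2 called 11. For the bases of Dmd-203 that Dmd-201 lacks and for the glycosylation list, alternatives were chosen after seeing the data. The ratio of those Dmd bases ranged from 0.58 to 0.61 against C57BL6 WT and from -0.59 to -0.51 against C57BL6-BALB/c WT. Between the WT libraries it ranged from 1.096 to 1.188. Of 18 glycosylation genes, 17 were lower against C57BL6 WT under each scaling. Pooled libraries limit every value, since differences among mice cannot be seen, and Sntb1 rests on 145 to 199 counts.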
